A study of Mus musculus with 8 samples.

Results

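Cytosolic ribosomal protein genes encode the proteins that, with ribosomal RNA, build the ribosomes of the cytoplasm. The members described here are the protein-coding genes whose symbol is Rpsa, Rplp0, Rplp1 or Rplp2, or starts with Rpl or Rps and a digit, without the ribosomal S6 kinase genes and without pseudogenes. Of the 54532 genes in the deposited table, 86 are members. They comprise 43 genes of the large subunit, 31 of the small subunit, 3 of the acidic stalk (Rplp0, Rplp1 and Rplp2), 8 second copies of other members, and Rps19bp1, whose product binds Rps19 and is not itself a ribosomal protein. Fau, which encodes a ribosomal protein fused to a ubiquitin-like protein, does not follow this naming and was counted with the translation genes instead.

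The 8 libraries came from mouse cardiac fibroblasts, the matrix-forming cells of the heart, at day 7. Cells overexpressing EphrinB2, a membrane ligand of Eph receptors, in osteogenic differentiation medium gave 2 libraries, vector cells in that medium 2, EphrinB2 cells in complete medium 2, and vector cells in complete medium 2. The labels name no promoter, clone or animal of origin. Whether partner libraries were separate cultures is not stated, and p-values reflect no more than the spread between them, which may be technical. Depth was 16493963 to 20550770 counted reads, as estimated from the deposited values.

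Each ribosome holds 1 copy of most of these proteins, and ribosomal proteins left free are degraded. Most of their mRNAs begin with a C followed by a run of pyrimidines, the 5' terminal oligopyrimidine (TOP) motif, through which mTORC1 signalling controls their translation. The large subunit forms peptide bonds, the small subunit reads the mRNA, and the stalk recruits elongation factors. The mRNAs are short, abundant and stable in growing cells, fibroblasts among them.

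Because the genes share this start, it was looked for in the RefSeq promoters of build GRCm38.p6, which held 66 of the 86 members. The motif searched was C followed by at least 5 letters that are C or T, on the sense strand, starting within 5 bases of an annotated start. It stood at a start of 27 of the 66 members, 40.9%, against 11.9% of the 27025 genes in the table. The windows below hold 30 bases centred on the start, with the motif in capitals, for 3 members that have it and 3 that do not. They are shown because all 6 are among the members whose values follow.

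Rps6 (chr4:86857353-86857382, minus strand): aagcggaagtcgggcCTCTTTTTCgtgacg
Rps21 (chr2:180257364-180257393, plus strand): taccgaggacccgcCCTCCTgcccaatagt
Rplp2 (chr7:141447636-141447665, plus strand): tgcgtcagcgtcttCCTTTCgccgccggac
Rpl41 (chr10:128549154-128549183, minus strand): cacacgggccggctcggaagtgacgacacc
Rplp0 (chr5:115559452-115559481, plus strand): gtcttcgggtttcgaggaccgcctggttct
Rpl4 (chr9:64173372-64173401, plus strand): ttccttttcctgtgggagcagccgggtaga

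A missing match says only that these letters are not at the annotated start. Among tested members, the 27 with the motif had a median log2 difference between osteogenic and complete medium in vector cells of -0.14, and the 35 without it -0.17.

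Levels differed widely between members. FPKM, the number of fragments scaled by exon length and by library depth, was highest for Rplp1, with a mean of 1626 over the 8 libraries. Rplp0 followed at 806, Rps3a1 at 699, Rps15 at 630 and Rpl36 at 589. Rpl22l1, a second copy of Rpl22, averaged 14.3 FPKM, Rps19bp1 10.8, Rpl13a 8.62, Rpl24 2.08 and Rps10 0.978, the lowest levels among tested members. The listed values of Rpl13a, Rpl24 and Rps10 may not be their mRNA levels, because the handling of reads that map to several places is not stated. The pseudogene named for Rpl13a had no reads. Why Rpl13a and Rpl24 were low was not tested.

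Of the 86 members, 82 passed the filter on low values, an FPKM of at least 1 in at least 2 libraries. The 4 that did not are second copies. Rpl3l, the striated-muscle copy of Rpl3, reached 0.0946 FPKM, and Rpl10l, a testis copy of Rpl10, had reads in 1 library, at 0.0505 FPKM. Rpl36al, a copy of Rpl36a, reached 0.946 FPKM and Rpl39l, a germ-cell copy of Rpl39, 1.35 FPKM. These levels are at or under 24 reads per library, too few to compare groups.

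The members' summed share of all FPKM was 9.83% and 5.33% in EphrinB2 libraries 1 and 2 in osteogenic medium, against 5.31% and 5.18% in vector libraries there. In complete medium it was 6.81% and 5.28% in EphrinB2 libraries, against 6.08% and 5.75% in vector libraries. EphrinB2 osteogenic replicate 1 stood well above the other 7 libraries, whose shares lay between 5.18% and 6.81%. Of counted reads, which are not divided by gene length, the members took 5.62% in that library and 2.16% to 2.97% in the other 7.

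**Figure D1:**
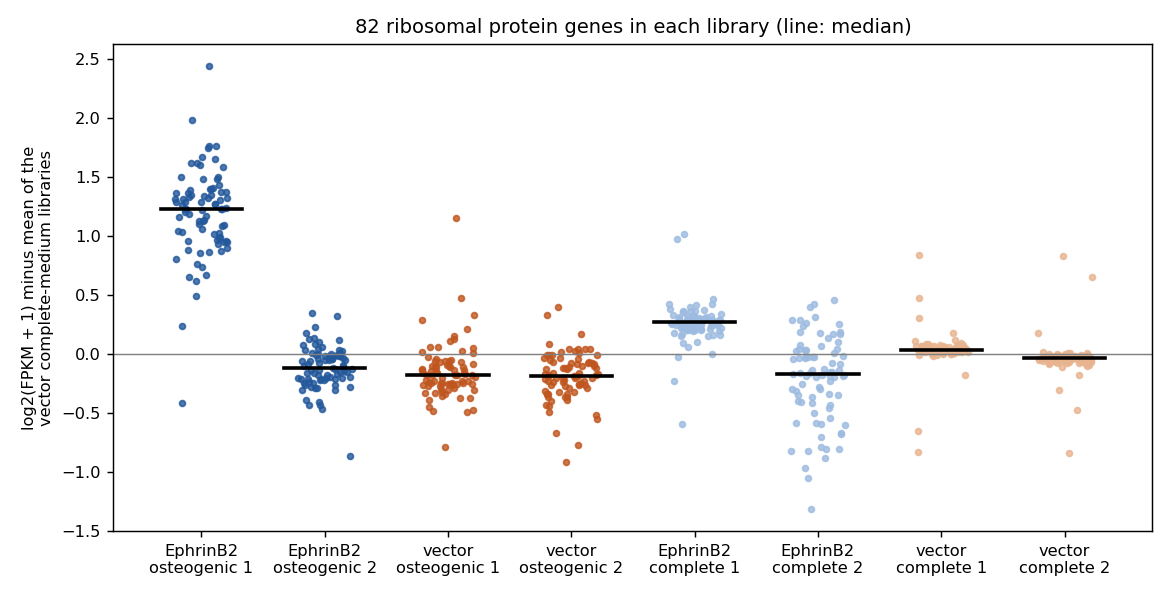
The log2(FPKM + 1) of each of the 82 tested members (points, spread sideways for legibility) in each of the 8 libraries, minus the mean of the vector libraries in complete medium, with the median as a line. The median is 1.23 in EphrinB2 osteogenic replicate 1, and in the other libraries it lies between -0.18 and 0.27.

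The first comparison asks how control cells differed between osteogenic and complete medium. In vector cells most members stood slightly lower in osteogenic than in complete medium. The median log2 difference was -0.18, against -0.02 over all 12994 tested genes, with 69 of 82 members below 0. None of the 82 passed the threshold (limma on all 8 libraries, adjusted p between 0.541 and 1.0), where 7.52% of all tested genes passed, and 0 members did at an unadjusted p of 0.05, against 19.5% of all tested genes. Under quantile normalization the median was -0.07. Both osteogenic libraries lay below both complete-medium libraries for 59 members and above them for 4, while 38.8% of all tested genes lay below and 34.4% above.

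The lower level was alike in both osteogenic libraries. Relative to the mean of vector cells in complete medium, the members' median was -0.18 on the log2 scale in replicate 1 and -0.18 in replicate 2, or 0.885 and 0.880 of the level there. Of the 82 members, 68 and 71 stood below that mean, where 52.3% and 52.1% of all tested genes did. The median was -0.19 over 43 large-subunit and -0.18 over 31 small-subunit genes.

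The count of calls turned on the estimate of the spread. Over all tested genes the SD of the log2 difference between partners was 0.66 and 0.52 in EphrinB2 cells in osteogenic and complete medium, against 0.23 and 0.26 in vector cells. All 4 groups share 1 spread in the model. With only the 4 vector libraries in the model, 36 members fell and 1 rose (limma, adjusted p from 0.00208 to 0.0470 among them), where 22.1% of all tested genes fell and 18.5% rose. The 37 called members were 20 large-subunit, 14 small-subunit, 2 stalk and 1 second-copy gene. Their share, 45.1%, lay near the 40.6% of all tested genes called. Of the called members 36 of 37 fell, against 2866 of 5273 called genes overall.

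Rpsa (ENSMUSG00000032518, GRCm38 chr9:120127689-120132369, plus strand), a small-subunit protein also known as the laminin receptor precursor, had 190 and 188 FPKM in vector libraries in osteogenic medium, against 242 and 236 FPKM in complete medium. The groups did not overlap, and partners lay within a few FPKM of each other. The log2 difference was -0.34 (SE 0.38, adjusted p = 0.761 in limma on 8 libraries), and it fell with the vector libraries alone (SE 0.04, adjusted p = 0.00460).

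Rps2, a small-subunit protein at the mRNA entry site, had 293 and 273 FPKM in osteogenic medium, against 416 and 387 FPKM in complete medium. Its groups were apart, with the smallest p of the members in this comparison. The log2 difference was -0.50 (SE 0.35, adjusted p = 0.541 in limma on 8 libraries, 0.00523 with the vector libraries alone).

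Rps27l, a p53-inducible second copy of Rps27, had 77.7 and 75.1 FPKM in osteogenic medium, against 111 and 106 FPKM in complete medium, a log2 difference of -0.50 (SE 0.44, adjusted p = 0.671 in limma on 8 libraries, 0.00231 with the vector libraries alone). Rpl41, which encodes the shortest ribosomal protein, had 247 and 185 FPKM in osteogenic medium, against 316 and 318 FPKM in complete medium, and a difference of -0.56. Its osteogenic libraries lay apart from each other but both under the complete-medium ones.

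The stalk proteins differed from each other. Rplp1 averaged 1204 ± 5.79 FPKM in osteogenic and 1520 ± 101 FPKM in complete medium (SD, n = 2 each), and Rplp0 averaged 632 ± 7.03 FPKM in osteogenic and 737 ± 12.7 FPKM in complete medium. Their log2 differences were -0.34 and -0.22, and both fell with the vector libraries alone (limma, adjusted p = 0.0162 and 0.0183). Rplp2 stood at 113 ± 1.07 FPKM in osteogenic and 112 ± 1.68 FPKM in complete medium, with overlapping libraries.

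Genes with further known roles followed the same range. Rps19, the gene most often mutated in the human ribosomal anaemia Diamond-Blackfan, had 54.9 and 56.0 FPKM in osteogenic medium, against 75.1 and 69.8 FPKM in complete medium (difference -0.38). Rpl11, which with Rpl5 holds Mdm2 in check when ribosome assembly fails, had a difference of -0.24, and Rpl5 one of -0.13. Rps6, the classic substrate of S6 kinase, had a difference of -0.05, and Rpl10, a late-joining protein of the large subunit, one of -0.05 (SE 0.35).

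Rps3 (ENSMUSG00000030744, GRCm38 chr7:99477896-99483738, minus strand), at the mRNA entry channel of the small subunit, was the member that rose with the vector libraries alone. It had 132 and 143 FPKM in osteogenic medium, against 116 and 110 FPKM in complete medium. The groups were apart, and the log2 difference was 0.27 (SE 0.42, adjusted p = 0.848 in limma on 8 libraries, 0.0249 with the vector libraries alone). Rpl7l1 and, chosen after their values were seen, Rpl10a and Rps13 were the other members with both osteogenic libraries above both complete-medium libraries.

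**Figure D2:**
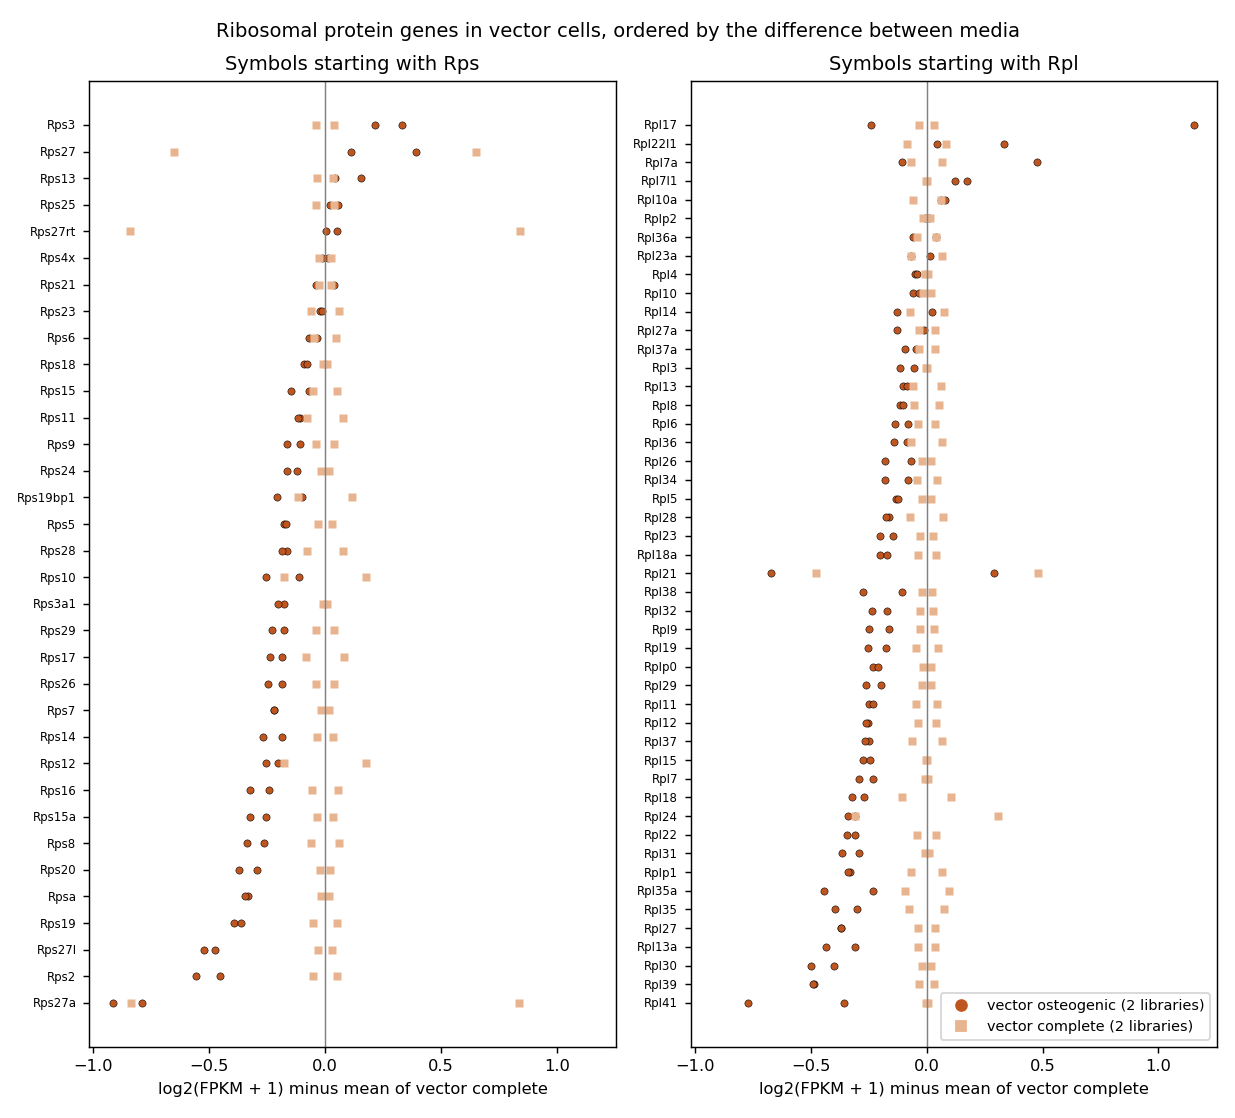
Each row is 1 tested member, and points give log2(FPKM + 1) in the 2 osteogenic (circles) and 2 complete-medium (squares) vector libraries minus the mean of the complete-medium ones. Circles of most rows lie left of the squares, as for Rps2 at -0.50, while Rps3 at 0.27 lies to the right and Rps27, Rps27rt and Rps27a have squares far apart.

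In the same vector libraries the summed FPKM of 13 macrophage markers was 1307 and 1413 in osteogenic medium, against 545 and 485 in complete medium. The 10 cardiac fibroblast markers summed to 2284 and 2327 FPKM in osteogenic medium, against 4463 and 4617 FPKM in complete medium. All 10 fibroblast markers were present in every library, while endothelial, cardiomyocyte, smooth muscle and lymphocyte lists summed to at most 15.4 FPKM each. In bulk RNA, fewer cells of a type and less RNA per cell cannot be told apart, and the part of these markers in the ribosomal protein values was not tested.

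Vector partners disagreed for a few members, some of them with near-identical copies. Rps27a, a ubiquitin fusion, had 33.1 and 30.3 FPKM in vector libraries in osteogenic medium, against 32.0 and 104 FPKM in complete medium. Rps27 had 71.8 and 87.6 FPKM in osteogenic medium, against 41.9 and 105 FPKM in complete medium, while Rps27rt, a retrotransposed copy, had 225 and 218 FPKM in osteogenic medium, against 390 and 121 FPKM in complete medium. Where Rps27 was low in complete medium, Rps27rt was high. Their coding sequences in GENCODE M21 on GRCm38 are identical at all 255 bases, stop codon included, which is why the sequence is printed once for both.

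Rps27 (chr3:90212522-90213651, minus strand) and Rps27rt (chr9:114982366-114982739, minus strand): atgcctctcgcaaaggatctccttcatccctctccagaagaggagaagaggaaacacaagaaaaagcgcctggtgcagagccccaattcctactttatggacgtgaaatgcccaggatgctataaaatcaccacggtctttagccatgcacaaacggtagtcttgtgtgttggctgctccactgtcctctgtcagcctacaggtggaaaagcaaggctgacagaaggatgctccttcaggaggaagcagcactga

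Reads from this stretch cannot be placed on 1 gene by their letters, and the authors' handling of such reads is not stated by the labels. Summed over both genes, RPM (reads scaled to the same total in every library, not divided by length) was 159 and 173 in osteogenic medium, against 189 and 154 in complete medium, and the groups overlapped. Neither gene's own value is therefore taken as a level of that gene.

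Rpl17 showed the same in osteogenic medium, with 165 and 62.4 FPKM in vector libraries 1 and 2, against 75.6 and 72.3 FPKM in complete medium. Its pseudogene Rpl17-ps10 had 159 and 347 FPKM in osteogenic medium, the opposite order, against 358 and 347 FPKM in complete medium. Rpl17 with its pseudogenes summed to 383 and 346 RPM in osteogenic medium, against 391 and 375 RPM in complete medium.

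Rps10, listed at 0.760 to 0.939 FPKM in osteogenic and 0.854 to 1.37 FPKM in complete medium in vector cells, had fewer reads than its processed pseudogene Rps10-ps2 (chr16:20822145-20822640, minus strand), which stood at 206 and 225 FPKM in osteogenic medium, against 254 and 242 FPKM in complete medium. The pseudogene matches 491 of 496 aligned bases of the Rps10 coding sequence, with an identical run of 392. The low level of Rps10 is uncertain for that reason. Of the 60 members with pseudogenes named for them, Rpl17, Rpl21 and Rps10 had fewer reads than those pseudogenes summed.

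**Figure D3:**
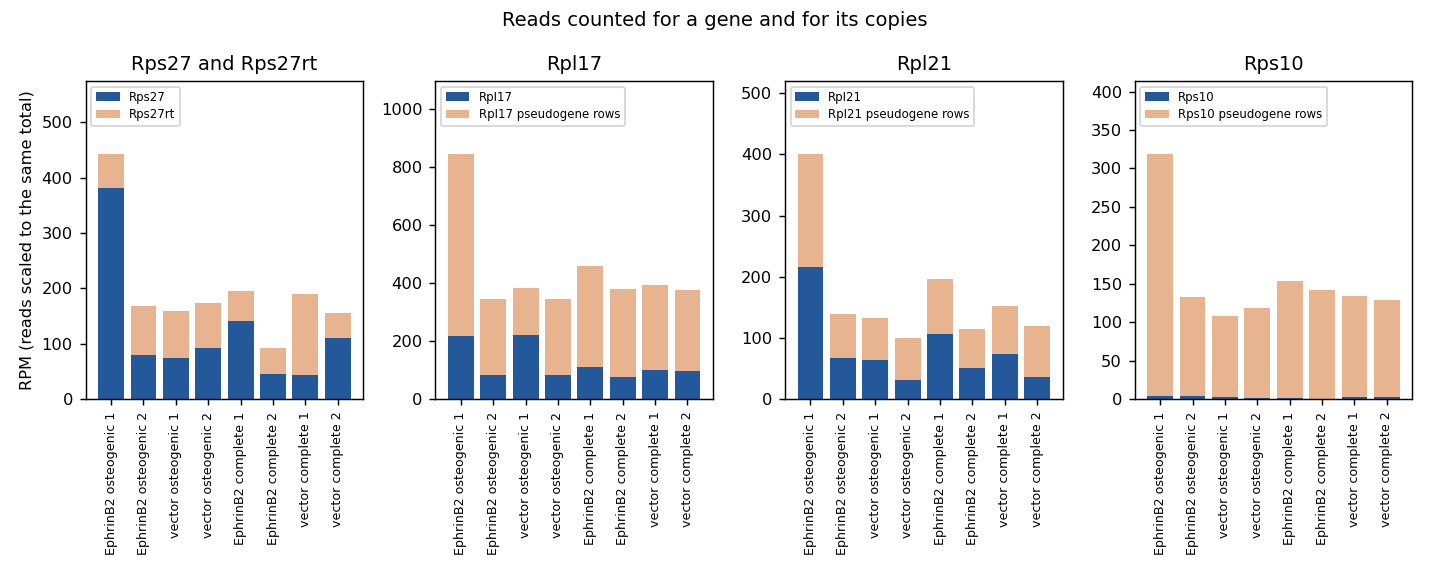
RPM (reads scaled to the same total) in each of the 8 libraries, stacked from 0, for Rps27 (dark) with Rps27rt (light) and for Rpl17, Rpl21 and Rps10 (dark) with their pseudogenes (light). The split between dark and light varies between partners, as for Rpl17 in vector osteogenic libraries, where the sums are 383 and 346.

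Before the EphrinB2 comparisons, the targeted gene was checked. Efnb2 had 5.02 and 18.3 FPKM in EphrinB2 libraries in osteogenic medium, against 1.39 and 1.27 FPKM in vector libraries, and 31.3 and 32.8 FPKM in EphrinB2 libraries in complete medium, against 6.30 and 5.56 FPKM in vector libraries. The log2 difference between EphrinB2 and vector was 2.21 in osteogenic medium (limma, adjusted p = 0.567) and 2.26 in complete medium. Neither passed the threshold. Every EphrinB2 library lay above its vector libraries, but EphrinB2 osteogenic replicate 1 lay far under its partner. That library and EphrinB2 complete replicate 2 are the ones that earlier work on these data found to stand apart.

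EphrinB2 partner libraries differed in these genes. In osteogenic medium the members' median over the vector mean of that medium was 1.43 on the log2 scale, or 2.70-fold, in replicate 1 and 0.08 in replicate 2. In replicate 1, 81 of 82 members stood above the vector mean and 73 by more than 2-fold, where 50.7% and 8.29% of all tested genes did. In replicate 2, 65 members stood above it, where 52.6% of all tested genes did.

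In complete medium the libraries lay on either side of vector. Over the vector mean of that medium the median was 0.27 in EphrinB2 replicate 1, with 78 members above the vector mean, where 50.8% of all tested genes were. It was -0.17 in EphrinB2 replicate 2, with 24 above, where 51.7% of all tested genes were. EphrinB2 osteogenic replicate 1 held the highest of all 8 values for 80 of 82 members, against 35.8% of all tested genes, and EphrinB2 complete replicate 2 held the lowest for 31, against 25.5%.

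The difference between partners varied with the length of the coding sequence. Over the 82 members, Spearman's rho between coding length and the log2 difference of replicate 1 minus replicate 2 in osteogenic medium was -0.61. Over the 11231 tested genes with a coding length it was -0.64. For replicate 2 minus replicate 1 in complete medium it was 0.56 over the members and 0.60 over those genes. Over the members the relation was weaker with other lengths. In osteogenic medium rho was -0.39 with mRNA length and -0.16 with exon length, and in complete medium 0.39 and 0.18. Over the 11231 genes these were -0.76 and -0.67 in osteogenic medium, and 0.67 and 0.58 in complete medium. These are descriptions across genes of the same libraries. Between vector partners the rho with coding length over the members was 0.08 in osteogenic and -0.16 in complete medium.

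The members are short, with a median coding length, counted without the stop codon, of 453 bases, against 1362 bases for tested genes. At coding lengths of 75 to 399 bases, the 28 members differed between EphrinB2 osteogenic partners by a median of 1.52, against 0.86 for the 586 other tested genes of those lengths. At 582 to 1257 bases the 26 members differed by 1.17, against 0.27 for 3689 other genes. In complete medium the medians were -0.64 for the shorter members, against -0.61 for other genes, and -0.20 for the longer members, against -0.15. The members' medians stood above those of other genes of like coding length in osteogenic medium and lay near them in complete medium. Genes were matched on coding length only. Over the 11231 genes the osteogenic partner difference varied more closely with mRNA length, at a rho of -0.76. Whether the members stand above other genes of like mRNA length was not tested. In all, 81 of 82 members lay above 0 in osteogenic and 76 below 0 in complete medium, at short and long coding lengths, as the plot of partner differences by coding length shows.

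**Figure D4:**
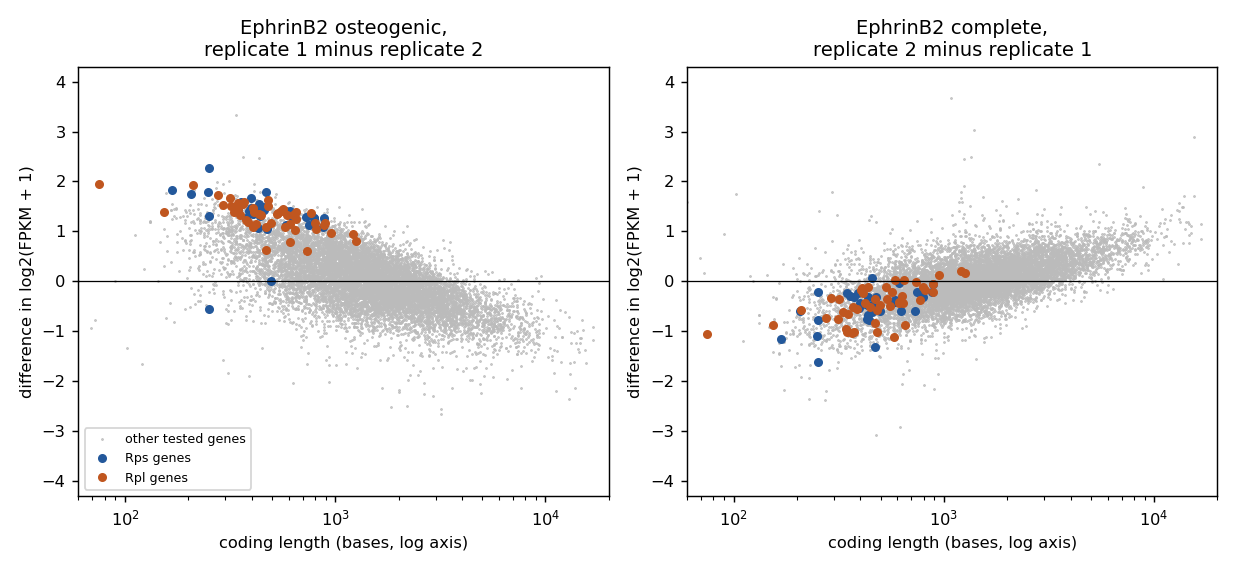
Difference in log2(FPKM + 1) between partner EphrinB2 libraries, replicate 1 minus 2 in osteogenic (left) and replicate 2 minus 1 in complete medium (right), against coding length on a log axis, for Rps (blue) and Rpl (orange) members and other tested genes (grey). The members' medians are 1.35 on the left and -0.43 on the right. Members stand above most other genes of like coding length on the left and lie among them on the right. Rpl41, at 75 bases, lies far to the left in both.

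Examples show this trend in FPKM. Rpl41 had 888 and 229 FPKM in EphrinB2 libraries 1 and 2 in osteogenic medium, against 247 and 185 FPKM in vector libraries. In complete medium it had 411 and 198 FPKM in EphrinB2 libraries 1 and 2, against 316 and 318 FPKM in vector libraries. The first EphrinB2 osteogenic library was far above every other, and the second EphrinB2 complete library was under both vector libraries.

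Rplp0, whose coding sequence is much longer, had 1229 and 625 FPKM in EphrinB2 cells in osteogenic medium, against 627 and 637 FPKM in vector cells. In complete medium it had 887 and 970 FPKM in EphrinB2 cells, against 746 and 728 FPKM in vector cells. Here both EphrinB2 complete libraries lay above both vector libraries, unlike Rpl41.

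Rplp1 had 3543 and 1280 FPKM in EphrinB2 osteogenic libraries, against 1208 and 1199 FPKM in vector ones, and 1810 and 928 FPKM in EphrinB2 complete-medium libraries, against 1592 and 1449 FPKM in vector ones. Rplp2 had 356 and 119 FPKM in EphrinB2 osteogenic libraries, against 113 and 112 FPKM in vector ones, and 141 and 70.3 FPKM in EphrinB2 complete-medium libraries, against 114 and 111 FPKM in vector ones. In both genes EphrinB2 complete replicate 2 was the lowest library of its medium, while EphrinB2 complete replicate 1 was the highest.

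Rps6 had 658 and 299 FPKM in EphrinB2 osteogenic libraries, against 292 and 299 FPKM in vector ones, and 374 and 324 FPKM in EphrinB2 complete-medium libraries, against 317 and 297 FPKM in vector ones. Rps21 had 446 and 129 FPKM in EphrinB2 osteogenic libraries, against 127 and 134 FPKM in vector ones. In complete medium it had 151 and 70.4 FPKM in EphrinB2 libraries, against 133 and 128 FPKM in vector ones. Each of them is highest in EphrinB2 osteogenic replicate 1, with the other EphrinB2 osteogenic library near vector.

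Osteogenic against complete medium in EphrinB2 cells gave a median of 0.51, against 0.03 over all tested genes, with 80 of 82 members above 0. No member passed the threshold (limma, adjusted p from 0.0883), where 11.8% of all tested genes did. At an unadjusted p of 0.05, 2 members passed, Rps10 and Rpl22l1, against 30.2% of all tested genes. The median was 0.31 under quantile normalization, and 0.31 with each library rescaled to the same FPKM total, which moved the median of all tested genes to -0.15. The groups were apart and higher in osteogenic medium for 5 members (24.3% of all tested genes) and lower for 0 (23.6%). Where 1 EphrinB2 library is left out, its partner is assumed to vary like the other groups. Without EphrinB2 osteogenic replicate 2, 72 members rose (23.1% of all tested genes). Without EphrinB2 osteogenic replicate 1, 2 fell (4.56%), and without EphrinB2 complete replicate 1, 1 rose (6.79%). Without both libraries that stood apart, 55 fell (15.7%) with a median of -0.39, in 1 library against 1 that takes its spread from the vector libraries.

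In that comparison Rpl22l1 had the highest difference, 1.39 (SE 0.53, adjusted p = 0.137 in limma), from 37.2 and 12.1 FPKM in osteogenic and 11.2 and 4.97 FPKM in complete medium. Rps21 followed at 1.21. Without both libraries that stood apart, Rpl22l1 was at 0.11 and Rps21 at -0.23. Rps27 came next at 1.10, but its reads cannot be told from those of Rps27rt, and the sum of both genes was 442 and 168 RPM in osteogenic medium, against 195 and 91.7 RPM in complete medium, where the groups overlapped. Rplp0 was lowest at -0.08, with Rps2 at -0.0031. Macrophage markers summed to 2297 and 1168 FPKM in EphrinB2 osteogenic libraries 1 and 2, against 469 and 316 FPKM in complete medium, highest in the library where the members were highest. Their part in the difference was not tested.

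EphrinB2 against vector in osteogenic medium gave a median of 0.73, against 0.01 over all tested genes, with 80 of 82 members above 0. None passed the threshold (limma, adjusted p from 0.567), where 0.0% of all tested genes were called, and none did at an unadjusted p of 0.05, against 3.39% of all tested genes. The median was 0.38 under quantile normalization. It was 0.48 with each library rescaled to the same FPKM total, which moved the median of all tested genes to -0.23. Both EphrinB2 libraries lay above both vector libraries for 52 members (25.6% of all tested genes) and below them for 0 (22.3%). Without EphrinB2 osteogenic replicate 2, 69 members rose, where 12.1% of all tested genes did, at a median of 1.43. Without replicate 1 the median was 0.08 and none was called. Rpl21 had the highest difference, 1.36, from 63.6 and 19.7 FPKM in EphrinB2 and 18.9 and 9.24 FPKM in vector cells, though its vector partners differed and its pseudogenes held more reads than it did.

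EphrinB2 against vector in complete medium gave a median of 0.05, against 0.01 over all tested genes, with 51 members above 0 and 31 below. With each library rescaled to the same FPKM total the median was -0.0011. None of the members passed (limma, adjusted p = 1.0 for all 82), where 0.0077% of all tested genes, 1 gene, did, and none passed at an unadjusted p of 0.05, against 1.29% of all tested genes. Both EphrinB2 libraries lay above both vector libraries for 21 members (14.3% of all tested genes), Rpsa, Rplp0, Rpl3, Rpl4 and Rpl5 among them, and below for 1 (11.5%), Rps10. Summed with its pseudogenes, Rps10 had 153 and 142 RPM in EphrinB2 cells, against 134 and 129 RPM in vector cells, the opposite direction. Rpsa had 295 and 285 FPKM in EphrinB2 cells, against 242 and 236 FPKM in vector cells, a difference of 0.27 (SE 0.38). Rpl7l1 was the only second copy among the 21.

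The interaction, the medium difference in EphrinB2 cells minus that in vector cells, had a median of 0.67, against 0.00 over all tested genes. It was -0.20 without both libraries that stood apart, 0.00 without EphrinB2 osteogenic replicate 1 and 1.35 without its partner. Under quantile normalization it was 0.35. None of the 82 members passed (limma, adjusted p from 0.746), where 0.0% of all tested genes did. At an unadjusted p of 0.05, 1 member passed, Rps10, against 1.65% of all tested genes. The highest values were 1.54 for Rps27a, 1.28 for Rpl30 and 1.26 for Rps29, and the lowest -0.13 for Rpl7a. Rps27a, whose vector libraries in complete medium disagreed, was at 0.71 without vector complete replicate 2, number 41 from the top of the 82 members. Without both libraries that stood apart Rps27a was at -0.01, Rpl30 at 0.06, Rps29 at -0.24 and Rpl7a at -0.77. Rpl7a was at 0.16 without vector osteogenic replicate 1 and 0.45 without EphrinB2 osteogenic replicate 2. It stayed below 0 with any other single library left out. The comparisons share libraries and are not independent of each other.

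Other genes of the translation apparatus give the setting. Between media, 7.52% of all tested genes passed the threshold in vector cells and 11.8% in EphrinB2 cells. Among 10 elongation factors, 1 rose in vector cells in osteogenic medium and none fell, with a median of -0.08. It was Eef1a2, an isoform of the factor that delivers tRNA, at 34.9 and 37.9 FPKM in osteogenic and 11.3 and 12.1 FPKM in complete medium (difference 1.56, limma adjusted p = 0.0125, and 0.102 to 0.133 without any 1 vector library). In EphrinB2 cells it rose too, by 1.91 (adjusted p = 0.00490), at 58.8 and 41.0 FPKM in osteogenic and 10.1 and 14.9 FPKM in complete medium.

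Of 36 initiation and TOP mRNA genes, 0 passed in any of the 5 comparisons, with medians of -0.12 in vector cells and 0.04 in EphrinB2 cells between media, and 0.38 between EphrinB2 and vector in osteogenic medium. Without both libraries that stood apart the median was -0.20 between media in EphrinB2 cells and 0.08 between EphrinB2 and vector in osteogenic medium. With the vector libraries alone, 12 of the 36 passed between media, a share under the 40.6% of all tested genes. Rack1, a scaffold on the small subunit, had 100 and 99.4 FPKM in vector osteogenic libraries, against 119 and 113 FPKM in complete medium. Fau had 267 and 282 FPKM in vector osteogenic libraries, against 290 and 258 FPKM in complete medium.

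Of 40 ribosome biogenesis genes, 1 rose between media in EphrinB2 cells, Rrs1, which acts in large subunit assembly (1.23, limma adjusted p = 0.0161), and 0 passed in vector cells. For this list and the next, the shares of all tested genes that passed were 11.8% in EphrinB2 and 7.52% in vector cells. Of 21 genes of mTORC1 and Myc control, Sesn1, a sestrin that restrains mTORC1, rose in vector cells (1.03, adjusted p = 0.0348). In EphrinB2 cells Sesn1 rose by 1.20 (adjusted p = 0.0168), Myc, a transcription factor of growth, rose by 1.18 (adjusted p = 0.0196) and Sesn2 fell by 0.90 (adjusted p = 0.0221). With libraries left out, these calls in EphrinB2 cells were each lost at least once, at adjusted p up to 0.0681 for Rrs1, 0.0525 for Sesn1, 0.0751 for Myc and 0.0748 for Sesn2, while all kept their direction. The vector call of Sesn1 was lost without any 1 vector library, at adjusted p up to 0.248.

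Further ribosome-linked lists stood above vector in EphrinB2 osteogenic replicate 1. Short genes outside the members were also higher in that library than in its partner, by a median of 0.86 for 586 genes with coding lengths of 75 to 399 bases. The lists below were not set beside genes of like length. The 77 mitochondrial ribosomal protein genes, which serve the ribosomes of mitochondria, had a median of 0.50 between EphrinB2 and vector in osteogenic medium, all 77 above 0, and the 10 tested snoRNA host genes one of 0.63. Without replicate 1, in the other EphrinB2 osteogenic library, these medians were 0.09 and 0.0031. In vector cells between media the medians were -0.04 and -0.16. None of the genes of either list passed in either comparison. With the trend on exon length removed from each library, the members' medians were 0.44 for EphrinB2 against vector in osteogenic medium, 0.21 between media in EphrinB2 cells and -0.16 between media in vector cells. Over the members the osteogenic partner difference had a rho of -0.16 with exon length, against -0.61 with coding length. These medians are therefore not values with the trend on coding length removed.

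**Figure D5:**
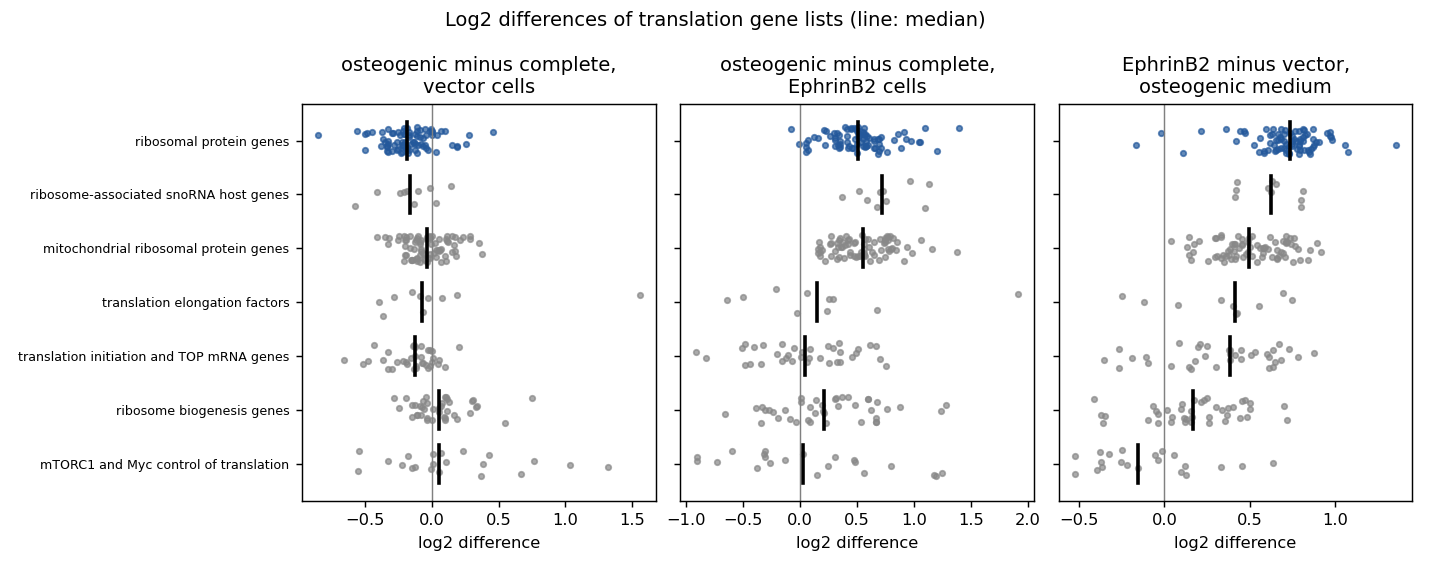
Log2 differences of the members (blue) and 6 other translation lists (grey), with the median of each as a line, for osteogenic minus complete medium in vector cells, the same in EphrinB2 cells, and EphrinB2 minus vector in osteogenic medium. The members' medians are -0.18, 0.51 and 0.73, and snoRNA hosts and mitochondrial ribosomal protein genes lie next to them in the panels that include EphrinB2 osteogenic replicate 1.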

How the data were processed

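RNA sequencing was run on 8 libraries, and the authors deposited FPKM values, fragments scaled by exon length and library depth, for each gene and library. The submitters' processing notes name HISAT2 2.0.5, DESeq2 1.16.1, featureCounts 1.5.0-p3, CASAVA and build mm10. The annotation release, the strand setting and the treatment of reads that map to several places are not stated there or in the labels. Symbols, places and lengths were looked up in GENCODE M21 (GRCm38, identical in assembly to mm10), which matched 54495 of 54532 identifiers, and 37 did not match.

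A count model would not suit FPKM. Depth was inferred from the spacing of low FPKM values, which were whole reads, within 0.02 of a read, for 98.1% to 98.3% of genes under 50 reads. Read numbers are estimates from that step and from the looked-up exon lengths, and their error was not measured. Genes with an FPKM of at least 1 in at least 2 libraries were tested as log2(FPKM + 1), a scale that compresses changes of low genes. The 8 libraries were fitted in 1 model with a mean per group in limma 3.58.1 (R 4.3.3), with a mean-variance trend and moderated two-sided tests. Residual degrees of freedom were 4, with 2.72 from the prior. Benjamini-Hochberg adjustment was made over the 12994 genes tested, with a threshold of 0.05, and "rose" or "fell" is written only of genes past it. The steps were also tested on simulated data, with noise drawn separately for each gene and changes placed in vector osteogenic medium. That simulation held no length-related difference between partners, such as the EphrinB2 libraries showed.

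The members and the other gene lists were chosen with earlier results of these data known, so no p-value is given for a list. Genes named in the text are the acidic stalk proteins and Rpsa, members that are second copies, the members with the 3 highest and 3 lowest differences in each comparison, the 5 highest and 5 lowest mean levels, members that did not pass the filter, several with known roles, and the called genes of other translation lists. Others are marked as chosen after their values were seen. Alternatives were another pseudocount, no filter, 3 other scalings, removal of a trend on exon length, no mean-variance trend, only the libraries compared, and libraries left out. Start sites and 30-base windows came from RefSeq promoters (GRCm38.p6), with a match for 66 of 86 members. Coding sequences came from GENCODE M21 transcripts and were aligned locally with Biopython 1.88. No column held values of other samples.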

Additional observations from a re-analysis of the deposited data

Results flagged for a closer look

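The difference between EphrinB2 and vector cells ran opposite ways in the 2 media for Rps10, with every library of 1 group beyond every library of the other. It had 1.47 and 1.46 FPKM in EphrinB2 osteogenic libraries, against 0.939 and 0.760 FPKM in vector ones, and 0.784 and 0.184 FPKM in EphrinB2 complete-medium libraries, against 0.854 and 1.37 FPKM in vector ones. The interaction was 0.95 (limma, adjusted p = 0.746), which did not pass. These levels rest on 7 to 70 reads per library, and 98.5% of the reads of Rps10 and its pseudogenes lay on the pseudogenes, of which Rps10-ps2 is near-identical to it. Summed over Rps10 and its pseudogenes, RPM was 318 and 133 in EphrinB2 osteogenic libraries, against 108 and 118 in vector ones, and 153 and 142 in EphrinB2 complete-medium libraries, against 134 and 129 in vector ones. That sum was higher in EphrinB2 cells in both media, so the opposite direction in complete medium was seen for Rps10 alone and not for the sum.

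The 301 noncoding genes named for ribosomal proteins, mostly pseudogenes, were not used in the comparisons. Their summed FPKM was 4628 in EphrinB2 osteogenic replicate 1 and 1866 in replicate 2, against 1567 and 1728 in vector libraries of that medium. In complete medium it was 2347 and 1914 in EphrinB2 libraries, against 2006 and 1889 in vector libraries. The sum was highest in the library where the members were highest.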

How the results depend on the processing

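Among the alternative values for counts, medians and shares, 155 moved by less than the spread between libraries or left a count alike, and 17 did not. Of the values of single named genes, Efnb2 among them, 89 passed the threshold only under an alternative and 20 reversed. A further 252 moved and 2495 stayed alike. These counts do not cover all 82 members, of which 76 changed sign for the interaction without both libraries that stood apart. In vector cells the count of called members was 0 in the model of 8 libraries and 37 with the vector libraries alone. Leaving out both libraries that stood apart is nearly the same fit, because only the vector libraries then give the spread. The median was -0.0738 under quantile normalization and -0.23 to -0.14 with 1 library left out. In EphrinB2 cells the count between media was 0 to 72 with 1 library left out and 55 without both, with medians of -0.17 to 1.18 and -0.39. Between EphrinB2 and vector in osteogenic medium, leaving out 1 library gave counts of 0 to 69 and medians of 0.0763 to 1.43. In complete medium the median between EphrinB2 and vector was -0.17 to 0.27, with no call. For the interaction the medians were 0.00088 to 1.35, and -0.20 without both. Over protein-coding genes outside the mitochondrial genome the vector shares were 5.70% in osteogenic and 6.45% in complete medium.

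Between media in EphrinB2 cells, 75 of 82 members changed sign without both libraries that stood apart, which leaves 1 library against 1. The members' median was then -0.39, against -0.01 over all tested genes. How many of all tested genes changed sign was not counted. Rps21 at -0.23 and Rps15 at -0.30 were among the 75. So were Rps27 at -0.84, Rpl17 at -0.42 and Rpl21 at -0.63, whose own levels are uncertain because of their copies. Other named members that changed sign included Rpl10 -0.23, Rpl11 -0.34, Rpl13a -0.56, Rpl3 -0.25, Rpl30 -0.38, Rpl36 -0.36, Rpl4 -0.27, Rpl41 -0.84, Rpl5 -0.30, Rplp1 -0.50, Rplp2 -0.24, Rps19 -0.53, Rps27l -0.60, Rps29 -0.44, Rps3a1 -0.37, Rps6 -0.32 and Rpsa -0.60. With 1 library left out, Rplp0 ranged from -0.57 to 0.41, Rps2 from -0.55 to 0.54 and Rpsa from -0.58 to 0.69. The cause was not tested. No paired analysis was possible because the labels give no replicate numbers that groups share. With 2 libraries a group, an exact permutation test cannot go below p = 0.333.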
